A study of Mus musculus with 4 samples.

Results

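Potassium channel genes were followed in RNA from 4 libraries of a mouse podocyte line. Every protein-coding gene of the table with a symbol that starts with Kcn was taken, which gave 94 of 56393 genes. Of these, 19 had a mean estimated count of at least 50 over the libraries, and ratios were formed for those 19 alone. The cells were the conditionally immortalised line MPC, moved to 37 °C for 7 days to differentiate after growth at 33 °C with interferon-gamma. The groups were a hairpin against Jaml with D-glucose at 40 mmol/L for 24 h (sh-JAML/HG), that hairpin without added glucose (sh-JAML), a control hairpin with the glucose (sh-NC/HG) and the control hairpin alone (sh-NC). Each group had 1 library from the same cell line, so there is no spread between cultures and no replicate check of any difference. The labels mention no control for osmolarity. The table's columns for the control hairpin name no hairpin and were matched to their groups by the treatment in the column name.

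Potassium channels let potassium leave the cell along its gradient and so set the resting membrane potential. Voltage-gated channels open on depolarisation, inward rectifiers (Kir) pass current best near rest, tandem-pore channels (K2P) carry background leak, and calcium-activated channels tie potassium exit to intracellular calcium. Auxiliary subunits form no pore and alter the gating or trafficking of the subunits that do. In podocytes, the epithelial cells around the glomerular capillaries, the large-conductance calcium-activated channel encoded by Kcnma1 has been studied beside the cation channel TRPC6. In tubule cells, Kir and K2P channels recycle potassium across the basolateral membrane.

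Library totals lay between 79330461 and 94341975 estimated counts. Jaml, the gene the hairpin was aimed at, had a count of 0 in all 4 libraries, those with the control hairpin included. Its level therefore cannot check the labels, and no knockdown of Jaml can be shown from these data. The sh-NC/HG library stood apart: 6.75% of 14187 genes were at least 2-fold from the mean of the other 3 libraries, against 2.61% to 2.82% for each of the others. Its 13 mitochondrially encoded genes summed to 13423 CPM (scaled counts per 1000000), against 19778 to 21212 CPM elsewhere, and its 67 histone genes to 255 CPM, against 380.1 to 478 CPM. Of 10 podocyte markers 7 were past the count minimum, with Synpo at 172 to 246 CPM, whereas the slit diaphragm gene Nphs1 had at most 35 counts and Tcf21 had 0. Of 9 tubule markers 4 were past it, and Cdh16, Lrp2 and Pax8 stood at 173 CPM or more in every library while Umod and Slc34a1 were at 0. In bulk RNA, fewer cells of a type and less RNA per cell cannot be told apart.

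The windows upstream of Kcnj2 and Kcnj16 are shown first, because Kcnj2 was the channel gene at least 2-fold apart the same way in both glucose pairs and its neighbour Kcnj16 the one at least 2-fold apart with the hairpin when no glucose was added. Kcnj16 lies on chromosome 11 from 110968033 to 111027968 and Kcnj2 from 111066164 to 111076821, both on the plus strand and 38196 bases apart (mm10). Each window runs 5′ to 3′ from 250 bases before to 50 bases after a RefSeq start (GRCm38.p6, plus strand). Capitals mark matches on either strand to the E-box CACGTG, the GC box GGGCGG, the CCAAT box (ATTGG on the other strand), the TATA box TATAAA and the cAMP response element TGACGTCA.
Kcnj2, chr11:111065914-111066213: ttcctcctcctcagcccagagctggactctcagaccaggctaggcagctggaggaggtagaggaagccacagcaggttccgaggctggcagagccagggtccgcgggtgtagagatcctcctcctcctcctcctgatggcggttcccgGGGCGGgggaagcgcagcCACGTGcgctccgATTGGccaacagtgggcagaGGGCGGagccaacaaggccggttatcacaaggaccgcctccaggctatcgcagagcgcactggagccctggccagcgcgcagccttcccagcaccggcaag
Kcnj16, the first of 4 listed starts, chr11:110967783-110968082: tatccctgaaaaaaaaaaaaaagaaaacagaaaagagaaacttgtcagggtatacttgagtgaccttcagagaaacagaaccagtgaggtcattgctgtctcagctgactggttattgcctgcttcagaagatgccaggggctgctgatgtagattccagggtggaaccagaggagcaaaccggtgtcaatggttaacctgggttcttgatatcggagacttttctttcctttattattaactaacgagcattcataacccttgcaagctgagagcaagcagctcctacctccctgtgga

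The Kcnj2 window held 4 matches and 18 CpG pairs, and the Kcnj16 window 0 matches and 3 CpG pairs, where the median of 32851 windows of this length was 7.0 CpG pairs. The E-box was present in 7.15% of those windows, the GC box in 35.7%, the CCAAT box in 37.4%, the TATA box in 13.6% and the cAMP response element in 1.79%. The other 3 Kcnj16 windows held between 0 and 2 matches. Which start these cells use was not measured, and a match says only that the letters are there.

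Tandem-pore and inward rectifier genes made up the larger part of channel RNA per length. Levels compared between genes are in CPM per kilobase of exon (CPM per kb). All 94 genes summed to 33.8 and 33.1 CPM per kb in sh-JAML cells with and without glucose, and to 48.5 and 46.6 in sh-NC cells with and without it. The 14 tandem-pore genes held 28.3% to 38.4% of that sum. The 15 inward rectifier genes held 23.1% and 15.1% in sh-JAML cells with and without glucose, and 29.8% and 39.6% in sh-NC cells with and without it. The inward rectifier share was thus lower in both sh-JAML libraries than in both sh-NC libraries, with no overlap. This split rested on Kcnj16, without which the share did not separate the hairpins. Kcnj16 alone held 17.8% and 8.04% in sh-JAML cells with and without glucose. It held 23.5% and 35.7% in sh-NC cells with and without glucose. The 16 auxiliary genes held at most 22.1%, the 40 voltage-gated pore genes 8.33% to 12.2%, and the 8 calcium- and sodium-activated genes 6.84% to 13.7%.

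**Figure D1:**
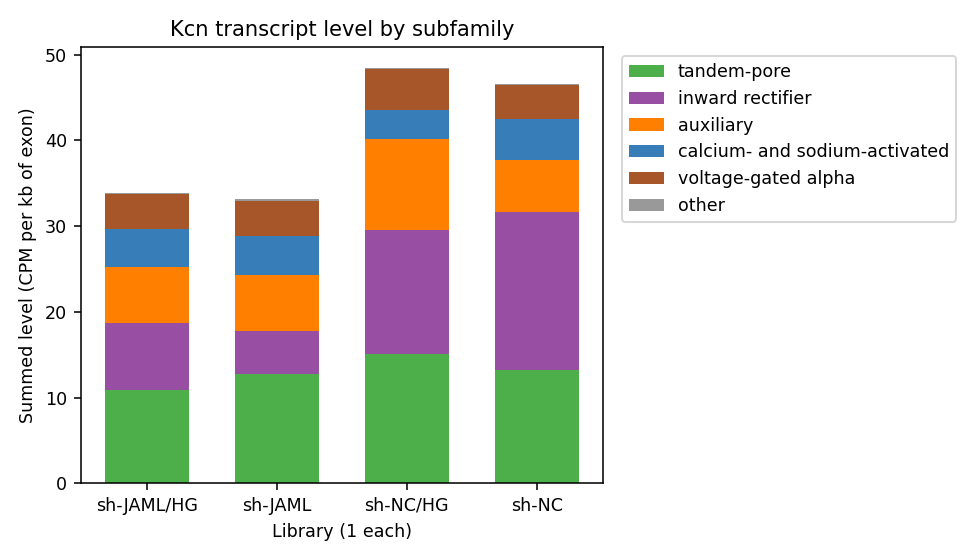
Summed level of all 94 Kcn genes (vertical axis, CPM per kb of exon) in each of the 4 libraries, stacked by subfamily. The sums are 33.8 and 33.1 in sh-JAML cells and 48.5 and 46.6 in sh-NC cells, and the inward rectifier layer ranges between 5.02 and 18.4.

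Few genes carried this sum, and the 4 highest held 57.1% to 71.1% of it. Kcnk5, which encodes the alkaline-activated leak channel TASK-2, had 2665 counts with and 2857 without glucose in sh-JAML cells, and 4281 with and 2911 without it in sh-NC cells. Per length this was 9.25 to 13.5 CPM per kb, the highest of the family in every library but sh-NC. Kcnj16, which encodes Kir5.1, a subunit that works mainly in heteromers with Kir4.1 or Kir4.2, had 2007 counts with and 842 without glucose in sh-JAML cells, and 4180 with and 5202 without it in sh-NC cells. Its level of 2.67 to 16.6 CPM per kb spanned that of Kcnk5, so the order of these leading genes is not set. The Kir4.1 gene Kcnj10 and the Kir4.2 gene Kcnj15 each had at most 20 counts in a library.

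A group of 5 genes followed, with mean levels between 2.09 and 3.51 CPM per kb. Kcnab2 (3.04 to 4.61 CPM per kb) and Kcnab3 (2.19 to 4.98) encode cytosolic beta subunits that resemble aldo-keto reductases. Kcnd1 (2.26 to 2.85 CPM per kb) encodes an A-type voltage-gated channel, and Kcnn3 (1.83 to 2.37) and Kcnn1 (0.904 to 2.66) encode small-conductance calcium-activated channels. Each gene's range overlapped that of the next in the order. Kcnab2 had 1503 counts with and 1437 without glucose in sh-JAML cells, and 2401 with and 1349 without it in sh-NC cells. Kcnn3 had 1617 counts with and 1872 without glucose in sh-JAML cells, and 2309 with and 1716 without it in sh-NC cells. Both were highest in sh-NC/HG. The tandem-pore gene Kcnk12 and the inward rectifier genes Kcnj14 and Kcnj4 came next, with means of 1.01, 0.961 and 0.800 CPM per kb.

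The other 9 measured genes were lower. Kcnh3, a voltage-gated gene of the ether-a-go-go family, averaged 0.668 CPM per kb and Kcnk10, which encodes the mechanosensitive leak channel TREK-2, 0.549. Kcnip4 and Kcnip3, which encode calcium-binding partners of A-type channels, averaged 0.370 and 0.250 CPM per kb, and the M-current gene Kcnq5 0.351. Kcnj2, the gene of the classical inward rectifier Kir2.1, averaged 0.245 CPM per kb, the ERG channel gene Kcnh2 0.142 and the ERG relative Kcnh7 0.0711. Along the order of the 19 means, Kcnk10 (lowest library 0.516) and Kcnip4 (highest library 0.511) were the only neighbours whose ranges did not overlap.

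**Figure D2:**
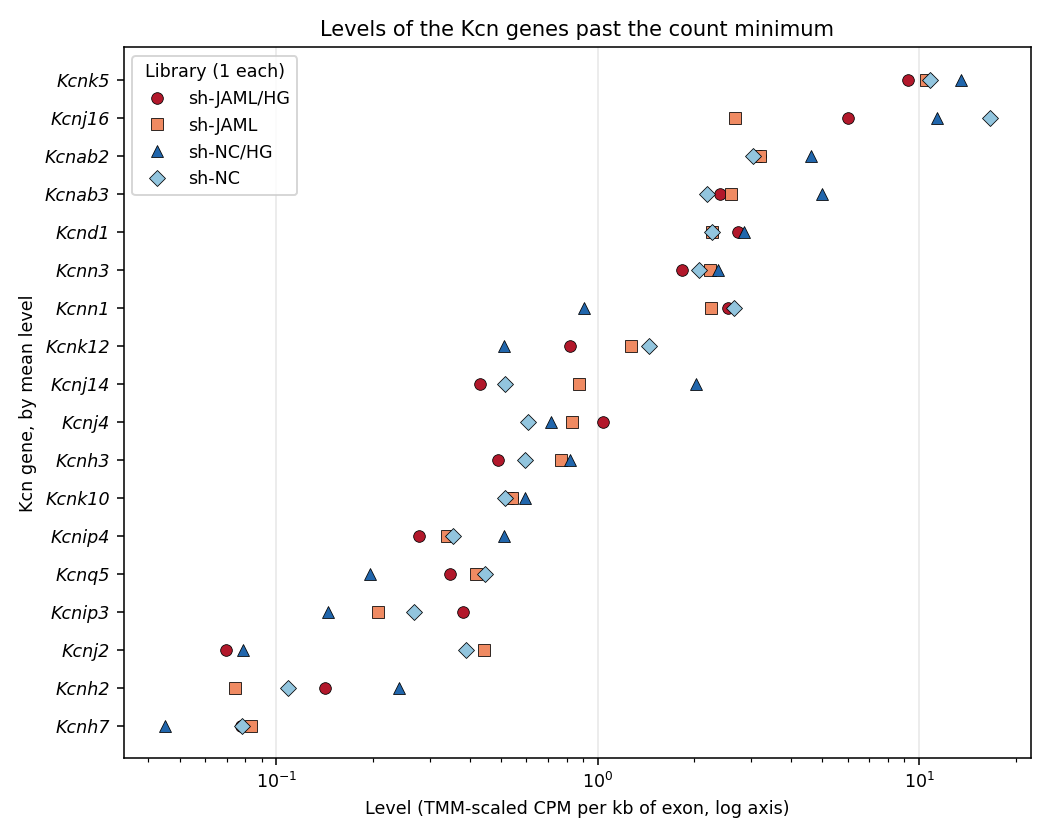
Level per exon length (horizontal log axis, CPM per kb) of 18 of the 19 Kcn genes past the count minimum, with 1 symbol per library. Kcnk5 and Kcnj16 have the highest means, and Kcnj2 lies at 0.0695 and 0.0787 in the glucose libraries and at 0.444 and 0.388 in the others.

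The remaining 75 genes were under the count minimum. Of these, 27 had a count of 0 in every library, which allows up to 0.129 to 0.151 CPM (3 fragments in a library), and 14 had counts in 1 library only. Their highest single count was 87. In all 4 libraries 6 reached the floor of 3 fragments, namely the voltage-gated gene Kcnh4, the tandem-pore genes Kcnk2 and Kcnk7, the beta subunit gene Kcnab1, the assembly regulator gene Kcnrg and the inward rectifier gene Kcnj13. Of the 40 voltage-gated pore genes, 6 were measured and 17 were at 0 throughout. Kcnma1 had 0 counts with and 2 without glucose in sh-JAML cells, and 12 with and 5 without it in sh-NC cells, which is at or under the floor in each library, and Trpc6 had at most 5 counts.

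With the control hairpin, sh-NC/HG was set against sh-NC for the response to high glucose. In sh-NC/HG, 3 of the 19 channel genes were higher by 2-fold or more and 4 were lower by as much. These 7 stand beside 7.92% of 14187 genes (4.65% higher and 3.27% lower). Among genes of like count, chosen after the members' counts were seen, 3 of 8 stood beside 23.9% for mean counts of 50 to 200, and 4 of 11 beside 7.82% for 200 to 3200. The median log2 ratio was 0.24 over the 19 and 0.00 over all genes. Each fold is given with its exact 95% interval, which covers counting error only.

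Kcnj14, which encodes the inward rectifier Kir2.4, had 513 counts in sh-NC/HG and 111 in sh-NC, 3.94-fold higher (2.57 to 6.09). Kcnab3 had 1331 counts in sh-NC/HG and 499 in sh-NC, 2.27-fold higher (1.84 to 2.81), and shares 5.13% of its exon bases with its antisense gene. Kcnh2 had 109 counts in sh-NC/HG and 42 in sh-NC, 2.21-fold higher (1.08 to 5.33). Of these higher genes, the interval of Kcnj14 lay wholly beyond 2-fold, and those of Kcnab3 and Kcnh2 reached under it.

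Kcnn1, which encodes SK1, had 387 counts in sh-NC/HG and 971 in sh-NC, 2.94-fold lower (2.31 to 3.76). Kcnk12, which encodes the tandem-pore subunit THIK-2, had 94 counts in sh-NC/HG and 226 in sh-NC, 2.82-fold lower (1.67 to 4.62). Kcnq5 had 140 counts in sh-NC/HG and 272 in sh-NC, 2.28-fold lower (1.49 to 3.53). Kcnn3, the relative of Kcnn1, was 1.15-fold higher (1.01 to 1.30), so these small-conductance channel genes lay on opposite sides. Kcnj2, the remaining lower gene, is described with the other glucose pair.

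Of the 5 genes highest per length, Kcnab3 was apart and the other 4 were under 2-fold. Kcnk5 was 1.25-fold higher (1.14 to 1.38), Kcnj16 1.46-fold lower (1.34 to 1.58) and Kcnab2 1.52-fold higher (1.33 to 1.74) in sh-NC/HG. Kcnd1 had 1226 counts with and 961 without glucose in sh-JAML cells, and 1404 with and 955 without it in sh-NC cells, and was 1.25-fold higher (1.06 to 1.48). Kcnj4, a further inward rectifier gene, had 190 counts with and 144 without glucose in sh-JAML cells, and 144 with and 104 without it in sh-NC cells, and was 1.18-fold higher (0.693 to 2.04). Just outside the threshold, Kcnip3 had 48 counts in sh-NC/HG and 76 in sh-NC, 1.86-fold lower (0.856 to 4.20), with an interval that includes 1.

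Most of the genes apart in this pair had their extreme value in sh-NC/HG. Against the mean of the other 3 libraries, a comparison chosen after that library was seen to stand apart, 4 channel genes were at least 2-fold above and 4 below. These stand beside 566 above and 391 below among 14187 genes. Kcnj14 stood at 5.50 CPM in sh-NC/HG and between 1.17 and 2.38 CPM in the others. Kcnab3 stood at 14.3 CPM in sh-NC/HG and between 6.27 and 7.44 CPM in the others. Kcnn1 stood at 4.15 CPM there and between 10.3 and 12.2 CPM elsewhere. For each, sh-NC/HG lay outside the range of the others. These genes were picked as apart in a pair with that library, so this follows in part from the choice. The low mitochondrial and histone sums given above belong to the same library. The 6 endothelial markers, of which 1 (Flt1) was past the minimum, summed to 4.26 CPM in sh-NC/HG and 1.05 to 1.59 CPM in the others. Flt1 had 353 counts in sh-NC/HG and 81 to 103 in the others and Pecam1 had 40 and 2 to 21, while Kdr was at 0. Cdh5 and Emcn also had 0 counts in sh-NC/HG, and Tek had 5 in both sh-NC/HG and sh-NC. The sum in sh-NC/HG was thus mostly Flt1, at 3.78 CPM. The part of these sums and markers in the channel values was not tested.

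With the Jaml hairpin, sh-JAML/HG set against sh-JAML gave 1 channel gene at least 2-fold higher and 2 lower. These 3 of 19 stand beside 2.88% of all genes (1.31% higher and 1.56% lower). By count, 1 of 8 stood beside 12.1% and 2 of 11 beside 1.73%. The median log2 ratio of the 19 was -0.10. Kcnj16 was 2.26-fold higher (1.93 to 2.68) in sh-JAML/HG. Kcnj14 had 99 counts in sh-JAML/HG and 191 in sh-JAML, 2.03-fold lower (1.22 to 3.43), just inside the threshold and outside it with a prior count of 8 (log2 ratio -0.97). Both lay on the other side of 1 in the control-hairpin pair.

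Kcnn1, Kcnab3 and Kcnq5, apart in the control-hairpin pair, were under 2-fold in this one. Kcnn1 had 988 counts in sh-JAML/HG and 829 in sh-JAML, 1.13-fold higher (0.937 to 1.37). Kcnab3 had 582 counts in sh-JAML/HG and 597 in sh-JAML, 1.08-fold lower (0.850 to 1.36). Kcnq5 had 226 counts in sh-JAML/HG and 258 in sh-JAML, 1.20-fold lower (0.828 to 1.76). All 3 intervals include 1, and the difference between the hairpins was not tested. Kcnk12 had 137 counts in sh-JAML/HG and 201 in sh-JAML, and Kcnh2 had 58 counts in sh-JAML/HG and 29 in sh-JAML. Kcnip3 had 114 counts in sh-JAML/HG and 59 in sh-JAML.

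**Figure D3:**
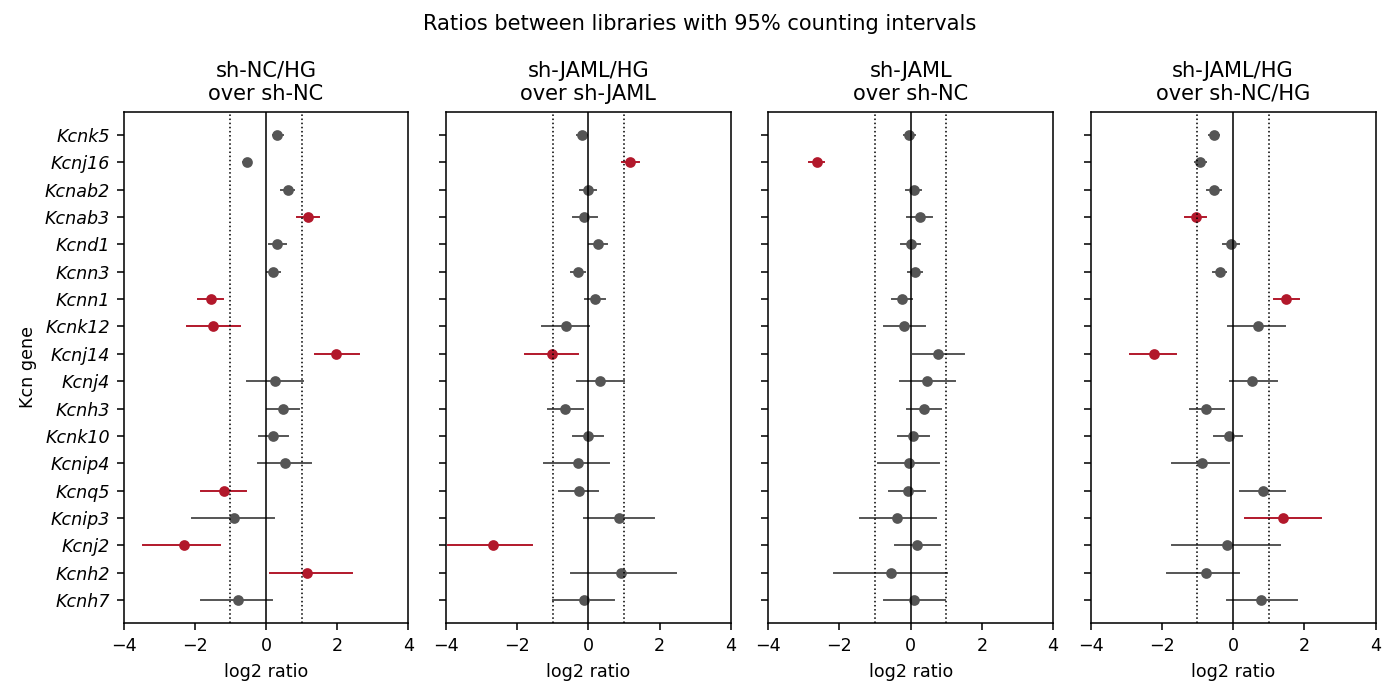
Log2 ratio of 18 of the 19 measured Kcn genes in the 4 pairs of libraries (horizontal axis), with 95% counting intervals as lines and dotted lines at 2-fold. Genes at least 2-fold apart are red, and Kcnj2 is red in both glucose pairs.

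Kcnj2 was the only channel gene at least 2-fold apart the same way in both glucose pairs, which share no library. It had 32 counts with and 194 without glucose in sh-JAML cells, and 40 with and 168 without it in sh-NC cells. Both glucose libraries were low and both others high, with no overlap. With glucose it was 6.39-fold lower (2.97 to 15.5) under the Jaml hairpin and 4.93-fold lower (2.43 to 11.0) under the control hairpin, and this 1 of 19 stands beside 0.592% of all genes. A model that added a hairpin term and a glucose term was fitted, in which its log2 difference with glucose was -2.48 (SE 0.38), with an unadjusted p of 0.00293 and an adjusted p of 0.886 by edgeR's quasi-likelihood test with Benjamini-Hochberg adjustment. DESeq2 gave it an adjusted p of 0.0654 and limma-voom one of 0.916, so it was not called by any of them.

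Markers of other cell types split between the libraries as Kcnj2 did. The 6 erythroid markers summed to 0.745 CPM with and 42.0 CPM without glucose in sh-JAML cells, and to 0.654 CPM with and 37.6 CPM without it in sh-NC cells. The 4 globin genes carried that sum, and among them Hbb-bt was at 0 in both glucose libraries, while Alas2 had 17 to 60 counts. Of 6 neuron markers, Snap25, Syt1, Map2 and Stmn2 had 0 counts in both glucose libraries and 15 to 39 in each of the others. Tubb3, the only neuron marker past the minimum, stood at 9.76 to 18.8 CPM without that split. Among channel genes under the minimum, 4 had 0 in both glucose libraries and counts in each of the others, a count made after the marker split was seen. Kcnk1 and Kcna2 were among them, with 4 to 9 counts in each library without glucose. The 4 are 8.33% of the 48 channel genes under the minimum with any count, beside 3.30% of all 14290 such genes. Of the 48, 0 had the reverse pattern, beside 3.35%. Of the 4, 0 reached the floor of 3 fragments in both libraries without glucose. The part of these other transcripts in the Kcnj2 value was not tested.

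**Figure D4:**
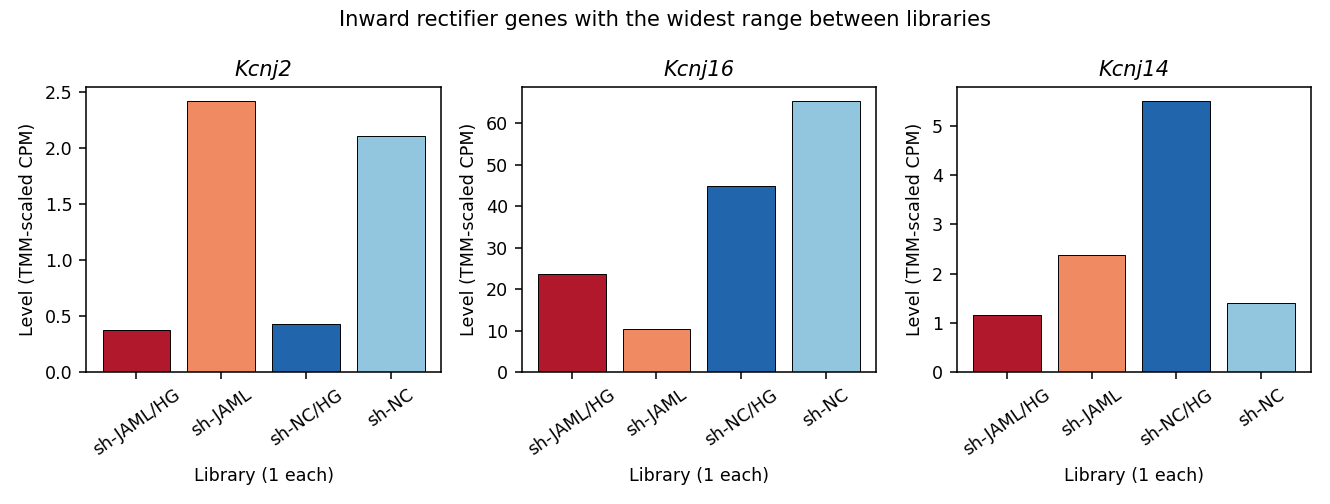
Level (vertical axes, TMM-scaled CPM, each starting at 0) of the inward rectifier genes Kcnj2, Kcnj16 and Kcnj14, with 1 bar per library. Kcnj2 is low in both glucose libraries (0.378 and 0.429), Kcnj16 is lower in both sh-JAML libraries (23.7 and 10.5) than in both sh-NC libraries (44.8 and 65.4), and Kcnj14 is highest in sh-NC/HG (5.50).

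For the glucose term edgeR called 0 of 19 channel genes at an adjusted p of 0.05, beside 0.00705% of all genes, and DESeq2 (0.374% of all genes) and limma-voom (0%) also called 0. At an unadjusted p under 0.05, edgeR gave 1 (beside 2.80% of all genes), DESeq2 1 (3.87%) and limma-voom 2 (3.07%). Kcnj2 was among them each time, and the other was Kcnk12. By edgeR, Kcnk12 had a log2 difference of -1.06 (SE 0.39, unadjusted p = 0.0551) and Kcnh2 one of 1.04 (SE 0.39, unadjusted p = 0.0572). In the sh-JAML cells Kcnk12 was 1.55-fold lower (0.983 to 2.47) and Kcnh2 1.90-fold higher (0.717 to 5.55) with glucose, the same sides as in the sh-NC cells, with intervals that include 1. The model has 1 residual degree of freedom, which is the disagreement of the glucose difference between the hairpins. Its SE and p values, for either term, therefore do not measure spread between cultures.

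Without added glucose, sh-JAML was set against sh-NC for the effect of the hairpin. Kcnj16 alone was at least 2-fold apart, beside 2.71% of all genes (1.31% higher and 1.40% lower) and 1.80% of genes with mean counts of 200 to 3200. None of the 8 channel genes with mean counts of 50 to 200 was apart, beside 11.2%. Kcnj16 had 842 counts in sh-JAML and 5202 in sh-NC, 6.23-fold lower (5.39 to 7.26). The other 18 lay between -0.54 and 0.77 on the log2 scale, and of those only Kcnj14 had an interval that left out 1, at 1.71-fold higher (1.04 to 2.81). Kcnj2, next to Kcnj16 on the chromosome, was 1.14-fold higher (0.733 to 1.76).

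Under high glucose, sh-JAML/HG set against sh-NC/HG gave 2 channel genes at least 2-fold higher and 3 lower. These 5 of 19 stand beside 7.59% of all genes (2.81% higher and 4.78% lower). By count, 2 of 8 stood beside 23.0% and 3 of 11 beside 7.29%. Kcnj14 was 4.70-fold lower (3.01 to 7.44), Kcnn1 2.82-fold higher (2.21 to 3.59) and Kcnab3 2.07-fold lower (1.70 to 2.53) in sh-JAML/HG. These are genes for which sh-NC/HG lay outside the other libraries, and that library is also in the control-hairpin glucose pair. Kcnip3, whose product DREAM can also repress transcription, had 114 counts in sh-JAML/HG and 48 in sh-NC/HG, 2.62-fold higher (1.27 to 5.56).

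Under high glucose Kcnj16 was 1.89-fold lower (1.69 to 2.10) with the Jaml hairpin, just outside the threshold, so it lay lower with the Jaml hairpin at both glucose levels by unequal amounts. No channel gene was at least 2-fold apart the same way in both hairpin pairs, beside 0.508% of all genes. For the hairpin term Kcnj16 had a log2 difference of -1.77 (SE 0.48), with an unadjusted p of 0.0217 and an adjusted p of 0.933 by edgeR. DESeq2 gave an adjusted p of 0.00256 and called this 1 of 19, beside 0.338% of all genes. EdgeR called 0 of 19 (0% of all genes) and limma-voom 0 (0%), so the call depends on the tool. At an unadjusted p under 0.05 each tool gave Kcnj16 alone, beside 2.82% of all genes by edgeR, 4.19% by DESeq2 and 3.22% by limma-voom.

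The mesangial and smooth muscle marker Des was also lower in both sh-JAML libraries, with 17 counts with and 9 without glucose in sh-JAML cells, and 216 with and 36 without it in sh-NC cells. The 7 markers of that list, of which 4 were past the minimum, summed to 1433 and 1397 CPM in sh-JAML cells with and without glucose, and to 1440 and 2080 CPM in sh-NC cells with and without it. Acta2, the most abundant of them, stood at 742 CPM with and 729 without glucose in sh-JAML cells, and 677 with and 1069 without it in sh-NC cells, so it was not lower in sh-JAML/HG than in sh-NC/HG. Ren1 and Itga8 were at 0. The podocyte marker Podxl was lower in both sh-JAML libraries too, with 1282 counts with and 808 without glucose in sh-JAML cells, and 2217 with and 1500 without it in sh-NC cells (hairpin term, unadjusted p = 0.0110 and adjusted p = 0.933 by edgeR). The part of these markers in the Kcnj16 value was not tested. Within 1 Mb of Kcnj16 and Kcnj2, 4 of 14 annotated genes were past the minimum, and besides this pair these were Abca5 and Map2k6. Abca5, an ABC transporter gene, lay between -0.21 and 0.37 on the log2 scale over the 4 pairs and the kinase gene Map2k6 between -0.61 and 0.72, so neither was 2-fold apart in any.

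Partner proteins of the channels were sparsely expressed. Of 6 listed partners of Kir6 and large-conductance channels and 2 of Kv4 channels, 0 were past the count minimum. The sulfonylurea receptor gene Abcc8 was at 0 and Abcc9 had at most 4 counts, and the gamma subunit gene Lrrc55 had 12 to 30. Of 4 HCN genes, which encode hyperpolarisation-activated cation channels, Hcn2 stood at 26.3 to 31.2 CPM and Hcn3 at 0.836 to 1.42 CPM, and neither was 2-fold apart in a pair.

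Of 19 potassium pump and cotransporter genes 11 were measured, with 2 higher and 0 lower in sh-NC/HG against sh-NC (median log2 ratio -0.09), beside 4.65% and 3.27% of all genes. These were Atp1b2, a beta subunit gene of the sodium pump, 2.62-fold higher (2.05 to 3.34), and Slc12a5, the gene of the chloride exporter KCC2, 2.23-fold higher (1.75 to 2.89). Of the same 11 genes, in sh-JAML/HG against sh-JAML 0 were higher and 1 lower, beside 1.31% and 1.56%. In sh-JAML/HG against sh-NC/HG 0 were higher and 2 lower, beside 2.81% and 4.78%, with Slc12a5 2.53-fold lower (1.96 to 3.28). In sh-JAML against sh-NC 0 were apart, beside 2.71%.

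Of 13 cation and volume-regulated channel genes 9 were measured, with 0 higher and 2 lower in sh-NC/HG against sh-NC (median log2 ratio -0.35), beside the same 4.65% and 3.27% of all genes. Lrrc8a, the essential subunit gene of the volume-regulated anion channel, was 2.07-fold lower (1.82 to 2.34) in sh-NC/HG and 1.62-fold lower (1.42 to 1.85) in sh-JAML/HG, with an unadjusted p of 0.00729 and an adjusted p of 0.927 by edgeR for the glucose term. Lrrc8d, a further subunit gene, stood between 11.9 and 12.4 CPM in sh-JAML/HG, sh-JAML and sh-NC/HG and at 73.9 CPM in sh-NC, and was also the 1 gene lower in sh-JAML against sh-NC, beside 1.40% of all genes. All 13 listed channel regulators were measured, and Sgk1, a kinase gene whose product raises channel levels at the membrane, was the only one apart in any pair. It is 1 of 13 in sh-NC/HG against sh-NC, beside 7.92% of all genes, and 1 of 13 in sh-JAML/HG against sh-NC/HG, beside 7.59%. It stood at 19.3 CPM with and 19.6 without glucose in sh-JAML cells, and 8.94 with and 26.4 without it in sh-NC cells, and its low library was again sh-NC/HG.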

How the data were processed

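Per gene and library, the authors deposited 1 estimated count, in whole numbers and not scaled between libraries. The submitters' processing notes name CASAVA 1.8, TopHat2 2.0.6 and build mm10, with no counting tool or annotation. Per the labels' protocols, libraries followed the TruSeq guide. Use of strand in counting is not stated, so overlapping antisense genes cannot be told apart. The design text speaks of 4 treated and 4 untreated samples; 4 libraries were analysed here. Low counts piled up at multiples of 4, so 4 units were taken as 1 fragment for intervals and for the floor (3 fragments, 12 units), while ratios used the counts as deposited.

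GENCODE M21 matched 55480 of 56393 genes and gave symbols, positions and exon lengths. CPM used TMM factors from edgeR 4.0.16 in R 4.3.3. The count minimum was a mean of 50. A gene was apart at 2-fold on log2 ratios with a prior count of 1, and printed folds use no prior count. Intervals are Clopper-Pearson at 95%, given the sum of both counts. The comparison with the mean of 3 libraries added 0.01 CPM. The additive model (hairpin and glucose) was fitted over all 14187 genes past the minimum with edgeR's quasi-likelihood test (Benjamini-Hochberg, 0.05). DESeq2 1.42.0 and limma 3.58.1 served as alternatives. The edgeR fit was also run on simulated counts whose glucose effects were the same under both hairpins. Those counts hold no disagreement between hairpins and no library that stands apart, so they cannot vouch for the model here. The SE printed with edgeR values was derived as the absolute log2 difference divided by the square root of the test's F statistic. Other steps used Python 3.11.15 with pandas 2.3.3 and scipy 1.17.1.

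All but 1 of the channel genes past the minimum are named, and a few genes that enter the counts and sums are not reported here. Of the named channel genes, full values go to those at least 2-fold apart in a pair and those with an unadjusted p under 0.05. They also go to the 10 highest per exon length. Listed partner genes are named where apart or else among the highest, save for those not reported. Members, lists and rules were chosen with earlier results of these data known.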

Additional observations from a re-analysis of the deposited data

Results flagged for a closer look

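For 5 channel genes the glucose ratio lay on opposite sides of 1 with the Jaml hairpin and with the control hairpin, and each interval left out 1. The intervals cover counting error only. The share of all genes that meet this rule is not given, so the number says nothing particular about channels. The difference itself was not tested, since each ratio rests on 1 library per group. The glucose log2 ratio in sh-JAML cells minus that in sh-NC cells was -2.99 for Kcnj14, 1.72 for Kcnj16, -1.11 for Kcnh3, -0.50 for Kcnk5 and -0.48 for Kcnn3. Kcnh3 had 238 counts with and 355 without glucose in sh-JAML cells, and 440 with and 272 without it in sh-NC cells. For Kcnk5 the ratios were small, 1.13-fold lower (1.02 to 1.26) with the Jaml hairpin and 1.25-fold higher (1.14 to 1.38) with the control hairpin. Such a difference uses all 4 libraries for any gene, among them sh-NC/HG, which stood apart, and the part of that library was not tested. For Kcnj16, sh-NC/HG (44.8 CPM) lay between sh-JAML (10.5 CPM) and sh-NC (65.4 CPM).

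The non-coding gene Kcnq1ot1, antisense to Kcnq1 on chromosome 7 (143203458 to 143296549), is outside the protein-coding set. It had 1762 counts with and 1182 without glucose in sh-JAML cells, and 1850 with and 974 without it in sh-NC cells. With glucose it was 1.41-fold higher (1.21 to 1.64) in sh-JAML cells and 1.62-fold higher (1.38 to 1.89) in sh-NC cells. The glucose term had an unadjusted p of 0.0232 and an adjusted p of 0.927 by edgeR. Kcnq1 itself had at most 21 counts in a library.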

How the results depend on the processing

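DESeq2 size factors or total counts in place of TMM left the number of channel genes apart as it was in each of the 4 pairs. With no count minimum, which brings in 48 further genes with any count, 38 were apart in sh-NC/HG against sh-NC, 33 in sh-JAML/HG against sh-JAML, 30 in sh-JAML against sh-NC and 31 in sh-JAML/HG against sh-NC/HG, with 8 the same way in both glucose pairs and 4 in both hairpin pairs. With a mean count of at least 200, 4 were apart in sh-NC/HG against sh-NC, 3 in sh-JAML/HG against sh-NC/HG and 0 in both glucose pairs, since Kcnj2 is under that minimum. At 1.5-fold the numbers were 11, 7, 2 and 12 in the same order of pairs, with 3 in both glucose pairs and 1 (Kcnj16) in both hairpin pairs. A minimum of 12 kept 29 genes and 1 of 200 kept 11. The share of all genes apart is not given under the other minimums or at 1.5-fold, so these numbers say nothing particular about channels. Of the 48 genes added with no minimum, 6 reached the floor of 3 fragments in every library. DESeq2 called 1 gene for the hairpin, Kcnj16, where edgeR called 0; the cause was not tested. Of 228 single ratios under both other scalings and a prior count of 8, 227 kept their sign and stayed inside their own counting interval, which is wide for low genes. With the prior count of 8, Kcnj14 in sh-JAML/HG against sh-JAML came to -0.97, which left 2 genes apart there, and Kcnj2 came to -2.41 in that pair and, for the control hairpin, -2.08 in sh-NC/HG. Kcnd1 in sh-JAML against sh-NC, at -0.00, came to 0.03 with total counts. No paired analysis was possible because each group had 1 library, so no replicate numbers could form a block; the glucose term of the additive model does compare libraries within each hairpin. Leaving out a library leaves the additive model no residual degrees of freedom. Depth limits the genes under a mean count of 200, whose intervals are wide.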
